A study of Mus musculus with 4 samples.

Results

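The let-7 family guide arms are the mature microRNAs (miRNAs) cut from the 5′ arm of the let-7 and miR-98 precursors. The 10 members that the array lists as mmu-let-7a-5p, mmu-let-7b-5p, mmu-let-7c-5p, mmu-let-7d-5p, mmu-let-7e-5p, mmu-let-7f-5p, mmu-let-7g-5p, mmu-let-7i-5p, mmu-let-7j and mmu-miR-98-5p were taken out of 1881 mouse miRNAs, and are written below without the prefix. They were taken by name and not by a cut on their values, but with earlier results of these data known. They were measured in the exosome fraction, small vesicles pelleted by ultracentrifugation from culture medium, of 3T3-L1 cells, a mouse fibroblast-like line that turns into adipocytes in differentiation medium. The 4 samples came from D0, before induction, and from D4, D12 and D16 after it, with 1 single-colour Cy3 array per day. D0 cells had been kept for 3 days in low-glucose DMEM. The D4, D12 and D16 cells had then spent 2 days in high-glucose medium with dexamethasone at 6.4 nM, insulin at 10 µg/ml and 0.5 mM 1-methyl-3-isobutylxanthine, and after that stayed in high-glucose medium with 10 µg/ml insulin alone. All media held 10% fetal bovine serum depleted of exosomes.

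Each array held a pool, of 2 independent experiments by the study's methods and of 3 by the sample descriptions, so no spread between cultures was measured and no p-value is given. The ± values below are the technical error that the scanner software, Feature Extraction, gives for 1 array. Samples were mixed by equal protein amount, so more of a miRNA per vesicle and more vesicles per amount of protein cannot be told apart. The medium changed with the day, so its part and that of differentiation cannot be told apart either. All 4 samples carry the label 3T3-L1 adipocytes, D0 included, and an array of miRNAs holds no messenger RNA by which the adipocyte state could be checked.

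A miRNA guides the Argonaute protein to messenger RNAs by pairing of its seed, bases 2 to 8 from the 5′ end, and lowers their translation and stability. let-7 was found in worms as a switch of developmental timing, and in mammals its members are low in stem and progenitor cells and high in most differentiated tissues. LIN28 proteins block the maturation of its precursors, and known targets are Hmga2, which promotes growth of precursor cells, the Ras genes and several cell cycle genes. In 3T3-L1 cells let-7 is known to be higher after differentiation, and added let-7 restrains the expansion of the cells that precedes it.

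All 10 mature sequences were found in RefSeq (GRCm38.p6). They are shown because the seed, in capitals, is what the members share, and the remaining bases are all that tells 1 member from another on the array.
let-7a-5p: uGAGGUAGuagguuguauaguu
let-7b-5p: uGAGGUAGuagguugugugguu
let-7c-5p: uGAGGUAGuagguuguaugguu
let-7d-5p: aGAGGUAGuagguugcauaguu
let-7e-5p: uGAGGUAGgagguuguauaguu
let-7f-5p: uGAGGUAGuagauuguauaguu
let-7g-5p: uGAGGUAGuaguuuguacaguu
let-7i-5p: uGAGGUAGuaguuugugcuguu
let-7j: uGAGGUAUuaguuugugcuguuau
miR-98-5p: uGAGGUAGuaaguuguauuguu

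In 9 members the seed was GAGGUAG, and let-7j alone had GAGGUAU. Counted from 1 at the 5′ end and with the base of let-7a-5p first, let-7c-5p differed from let-7a-5p by A19G, let-7e-5p by U9G and let-7f-5p by G12A. let-7b-5p differed by A17G and A19G, let-7d-5p by U1A and U16C, let-7g-5p by G12U and U18C, and miR-98-5p by G11A and A19U. let-7i-5p differed at 4 bases (G12U, A17G, U18C and A19U), and let-7j at the same 4 and at the end of the seed by G8U. Members that differ by 1 base can share signal on an array, and how far a probe of 1 member also takes up another was not tested. The probe sequences were not used here.

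The members lie at several places in the genome. In RefSeq's GRCm38.p6 let-7a-5p (chr13:48538239-48538260), let-7f-5p (chr13:48537889-48537910) and let-7d-5p (chr13:48536078-48536099) form 1 cluster on the minus strand. A second let-7a gene, Mirlet7a-2, lies on chromosome 9 in the long non-coding RNA gene Mir100hg, next to Mir100. let-7c-5p is made from 2 genes, at chr16:77599672-77599693 next to Mir99a and at chr15:85706616-85706637 beside let-7b-5p (chr15:85707325-85707346), both of the latter within the long non-coding RNA gene Lncppara. let-7e-5p (chr17:17830366-17830387) lies in the protein-coding gene Spaca6 with Mir99b and Mir125a within 10 kb. let-7g-5p (chr9:106178846-106178867) lies in Wdr82, and miR-98-5p (chrX:151913229-151913250) and a second let-7f gene (chrX:151912353-151912374) lie in Huwe1. let-7i-5p (chr10:122985698-122985719) and let-7j (chr3:140028281-140028304) have no other miRNA gene within 100 kb in this table. The array files give no coordinates, and their header names another assembly.

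Every member was read by 2 probes of 15 spots each, and none of the spots was saturated. The D0 array, to which the other days are set, was the least even. Over the 16 probes of the 8 members detected on every day, the median coefficient of variation between spots was 25.7% on D0, 5.66% on D4, 6.42% on D12 and 7.44% on D16. The number of miRNAs detected was 329, 426, 406 and 380 in the same order, and the signal summed over them was 12716, 39129, 30966 and 21873, so the whole array was dimmer on D0. The 4 spike-in RNAs, synthetic RNAs that the labelling kit adds in fixed amount, were by their geometric mean 1.82 times as bright on D4 as on D0. On D12 they were 1.72 times and on D16 1.27 times as bright as on D0. The signals were left unscaled, since the study's methods name division by D0. The study's methods do not say whether its arrays were scaled before that. The size of a ratio to D0 is that of the signals as deposited, and need not be that of the study. For the 283 miRNAs detected on all 4 arrays the median ratio to D0 was 2.59 on D4, 1.99 on D12 and 1.32 on D16, and ratios are also given below relative to this median.

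The let-7 family signal was higher on each day after induction than before it. Summed over the detected members it was 153 ± 5.67 on D0, 1147 ± 35.0 on D4, 1403 ± 45.0 on D12 and 917 ± 29.6 on D16. The ratio to D0 was thus 7.50 ± 0.360 on D4, 9.18 ± 0.450 on D12 and 6.00 ± 0.295 on D16. With the arrays scaled by the spike-in RNAs it was 4.11 on D4, 5.33 on D12 and 4.71 on D16. Divided by the effective spot size, the family ratio was 5.77 on D4, 7.25 on D12 and 6.00 on D16. Relative to the median miRNA, the family was 2.90 ± 0.139 times as bright as on D0 on D4, 4.60 ± 0.226 times on D12 and 4.53 ± 0.223 times on D16, so by this measure D12 and D16 lay within the technical error of each other. As a share of all detected signal, which no scaling by a factor changes, the family made up 1.20% on D0, 2.93% on D4, 4.53% on D12 and 4.19% on D16.

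**Figure D1:**
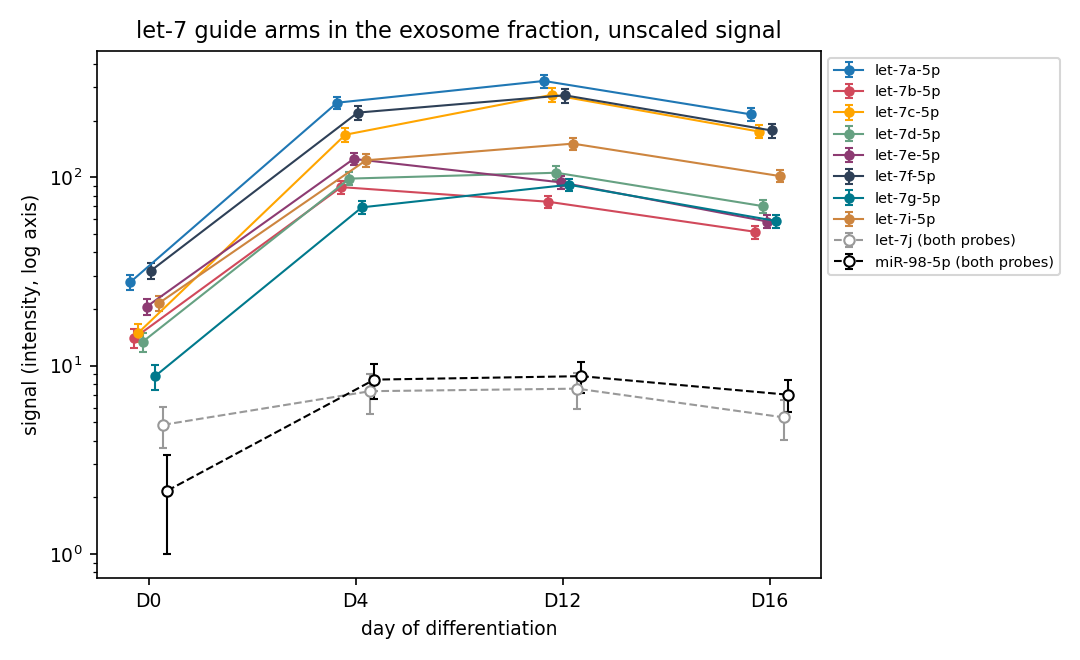
Total gene signal (arbitrary units, log scale) of each let-7 member on D0, D4, D12 and D16, 1 array per day, with the technical error of the software as bars. Open points and dashed lines give the sum of both probes for let-7j and miR-98-5p, which were not detected on every day. The 8 other members are lowest on D0, and let-7c-5p goes from 15.0 on D0 to 274 on D12.

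Detection was also lowest on D0, as it was over the whole array, with 329 of 1881 miRNAs against 426, 406 and 380 on the later days. Of the 10 members 8 were detected on D0, 9 on D4 and all 10 on D12 and D16. Those gained, let-7j and miR-98-5p, were near the limit of detection. All 8 members measured on D0 were more than 2-fold brighter on D4, where 62.1% of the miRNAs detected on both days were. On D12 all 8 again exceeded 2-fold, against 47.8% of miRNAs, and on D16 all 8, against 31.1%. The median ratio of the members was 7.13 on D4, 8.22 on D12 and 5.40 on D16, and that of the miRNAs measured on both days was 2.47, 1.91 and 1.32. Each of the 8 members lay above the median miRNA on each of these days. None was below 0.5-fold, where 0.315% of miRNAs were on D4, 3.37% on D12 and 9.34% on D16.

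Other scalings lowered the ratios but not below 1. With the arrays scaled by the 4 spike-in RNAs, all 8 members stayed above 2-fold on each day, against 29.0% of miRNAs on D4, 24.2% on D12 and 23.2% on D16. With the arrays brought to an equal 75th percentile over miRNAs that all of them detected, 2 of 8 members exceeded 2-fold on D4 (6.62% of miRNAs), 6 on D12 (10.1%) and 6 on D16 (11.4%). Under that scaling the median miRNA was itself at 0.607 of its D0 level on D4, 0.606 on D12 and 0.585 on D16, and all 8 members remained above it.

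Single spots gave the same direction. For each of the 16 probes, every spot on D4, on D12 and on D16 was brighter than every spot on D0. That was so for 52.9% of all probes detected on both days on D4, for 40.9% on D12 and for 38.4% on D16. Spots on 1 array share the sample and the hybridisation and are not replicates of a day.

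let-7c-5p, which is 1 base (A19G) away from let-7a-5p, had the highest ratios of the family. let-7c-5p signal was 15.0 ± 1.68 on D0, 168 ± 13.5 on D4, 274 ± 22.1 on D12 and 175 ± 14.1 on D16. It was brightest on D12, with D4 and D16 next and within 2 technical errors of each other. Its ratio to D0 was 11.2 ± 1.55 on D4, 18.3 ± 2.53 on D12 and 11.7 ± 1.61 on D16, and by D12/D0 it ranked 6 among 297 miRNAs. Over the 12 settings tried its D12/D0 ratio ran from 5.57 to 22.4. Its 2 probes, read on different spots, gave D12/D0 ratios of 18.6 and 17.4.

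let-7a-5p, the member conserved from worms to mammals, came second. let-7a-5p signal was 27.7 ± 2.44, 249 ± 19.5, 324 ± 25.7 and 216 ± 17.2 on D0, D4, D12 and D16. The ratio to D0 was 8.97 ± 1.06 on D4, 11.7 ± 1.39 on D12 and 7.78 ± 0.925 on D16. D0 stood far below the other days and D12 above them, while D4 and D16 were within 2 technical errors. Its probes gave D12/D0 ratios of 9.29 and 12.8, a gap of 1.38-fold.

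let-7g-5p, which is made from a gene of its own, had a similar course at a lower signal. let-7g-5p signal was 8.79 ± 1.34, 69.3 ± 5.57, 91.3 ± 7.22 and 58.7 ± 4.71 on D0, D4, D12 and D16, and D12/D0 was 10.4 ± 1.78. Its probes gave 11.7 and 8.12, a gap of 1.43-fold.

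let-7f-5p and let-7d-5p, which share the chromosome 13 cluster with let-7a-5p, and let-7i-5p, which has no miRNA neighbour, held the middle. let-7f-5p signal was 31.9 ± 2.98, 220 ± 18.8, 272 ± 23.2 and 177 ± 15.2 on D0, D4, D12 and D16, with D12/D0 at 8.53 ± 1.08. let-7d-5p signal was 13.4 ± 1.57, 98.4 ± 7.79, 106 ± 8.44 and 70.2 ± 5.67, with D12/D0 at 7.90 ± 1.12. let-7i-5p signal was 21.5 ± 1.98, 123 ± 9.13, 151 ± 11.2 and 101 ± 7.61, with D12/D0 at 7.01 ± 0.829. In each of these 3 members D4 and D12 lay within 2 technical errors of each other and D0 far below both.

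let-7b-5p and let-7e-5p had the smallest D12/D0 ratios of the 8, and were the members brightest on D4. let-7b-5p signal was 14.0 ± 1.57, 88.7 ± 6.79, 74.2 ± 5.78 and 51.4 ± 4.06 on D0, D4, D12 and D16, with D12/D0 at 5.29 ± 0.721. let-7e-5p signal was 20.6 ± 1.95, 125 ± 9.43, 94.0 ± 7.19 and 58.2 ± 4.54, with D12/D0 at 4.57 ± 0.556. For let-7b-5p D4 and D12 lay within 2 technical errors of each other, while for let-7e-5p all neighbouring days differed by more than that. Over the 12 settings D12/D0 ran from 1.61 to 6.17 for let-7b-5p and from 1.39 to 5.39 for let-7e-5p. By D12/D0 let-7b-5p ranked 40 and let-7e-5p 44 among 297 miRNAs, so that these members too stood high on the array.

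**Figure D2:**
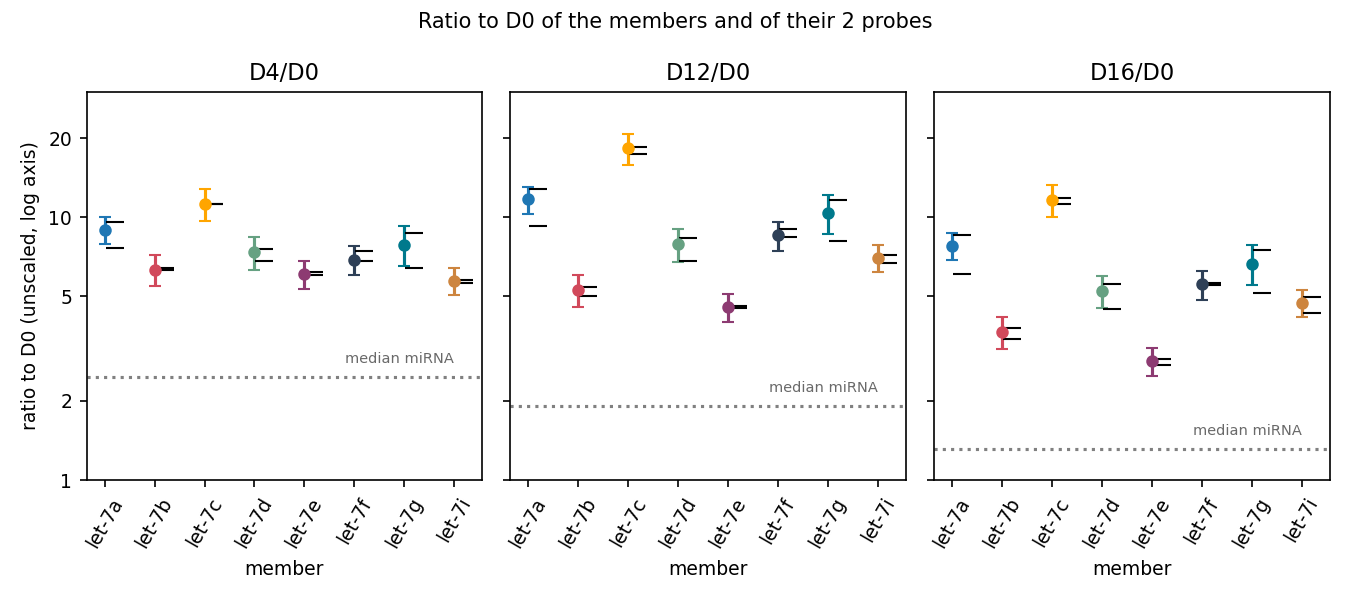
Signal ratio to D0 (log scale) of the 8 let-7 members detected on every day, on D4, D12 and D16, with technical errors as bars, both probes as black dashes and the median miRNA detected on both days as a dotted line. At D12 the members run from 4.57 for let-7e-5p to 18.3 for let-7c-5p, all above the median of 1.91.

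The spread between members was compared pair by pair, by dividing 1 member's ratio by another's and taking 2 technical errors as the interval. On D4 7 of the 28 pairs differed in their ratio to D0 by more than this interval, on D12 18 and on D16 17. let-7c-5p had a D12/D0 ratio 3.46 ± 0.672 times that of let-7b-5p and 4.01 ± 0.739 times that of let-7e-5p. Over the 4 pairs of their probes the first value ran from 3.22 to 3.70 and the second from 3.80 to 4.11. Over 12 ways of processing the signals the first ran from 2.73 to 3.80 and the second from 2.57 to 5.49.

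Neighbours in the order of D12/D0 mostly could not be separated. Of the 7 neighbouring pairs only let-7c-5p and let-7a-5p differed, by 1.57-fold with an interval from 1.09 to 2.25. The same pair was the only one to differ on D16, by 1.501-fold with an interval from 1.04 to 2.16, and none of the neighbouring pairs differed on D4. These intervals hold the error within arrays alone.

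The step from D4 to D12 divided the family, and it does not use the uneven D0 array. let-7c-5p signal was 1.63 ± 0.185 times as high on D12 as on D4, let-7g-5p 1.32 ± 0.149 times and let-7a-5p 1.30 ± 0.146 times. The ratio was 1.24 ± 0.149 for let-7f-5p, 1.23 ± 0.129 for let-7i-5p and 1.07 ± 0.121 for let-7d-5p. Below 1 were let-7b-5p at 0.836 ± 0.091, which lay above 1 under 3 of the 5 scalings tried, and let-7e-5p at 0.751 ± 0.081.

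A member was called lower where its ratio was below 0.8 and higher where the inverse of its ratio was below 0.8. By this rule 4 of the 9 members measured on both days were higher on D12 than on D4, against 15.0% of miRNAs, and 1, let-7e-5p, was lower, against 38.5%. The median miRNA stood at 0.865 of its D4 signal. The fourth of the higher members, miR-98-5p, had 1 probe summed on D4 and 2 on D12, and counts only for that: both of its probes summed gave 8.44 ± 1.79 on D4 and 8.81 ± 1.68 on D12.

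Relative to one another the changes were larger than the technical error. let-7c-5p had a D12/D4 ratio 2.17 ± 0.339 times that of let-7e-5p and 1.95 ± 0.307 times that of let-7b-5p, and let-7a-5p one 1.74 ± 0.269 times that of let-7e-5p. In all, 12 of 28 pairs differed in D12/D4 by more than 2 technical errors. A factor common to an array cancels in such a comparison, and over 12 ways of processing the signals the value for let-7c-5p over let-7e-5p ran from 1.85 to 2.29. The direction of 1 member by itself did not have this property, since let-7b-5p ran from 0.827 to 1.08 and let-7e-5p from 0.742 to 1.00 over the same settings.

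The spots show the same division. For both probes of let-7a-5p, let-7c-5p, let-7f-5p and let-7g-5p every spot on D12 was above every spot on D4, that is for 8 of 16 probes, against 8.59% of all probes. On the brighter probe of let-7c-5p the spots ran from 433 to 506 on D4 and from 727 to 877 on D12. For both probes of let-7e-5p every spot on D12 was below every spot on D4, against 30.3% of all probes. On its brighter probe the spots ran from 277 to 319 on D4 and from 201 to 266 on D12. The 6 probes of let-7b-5p, let-7d-5p and let-7i-5p had overlapping spots on these days.

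**Figure D3:**
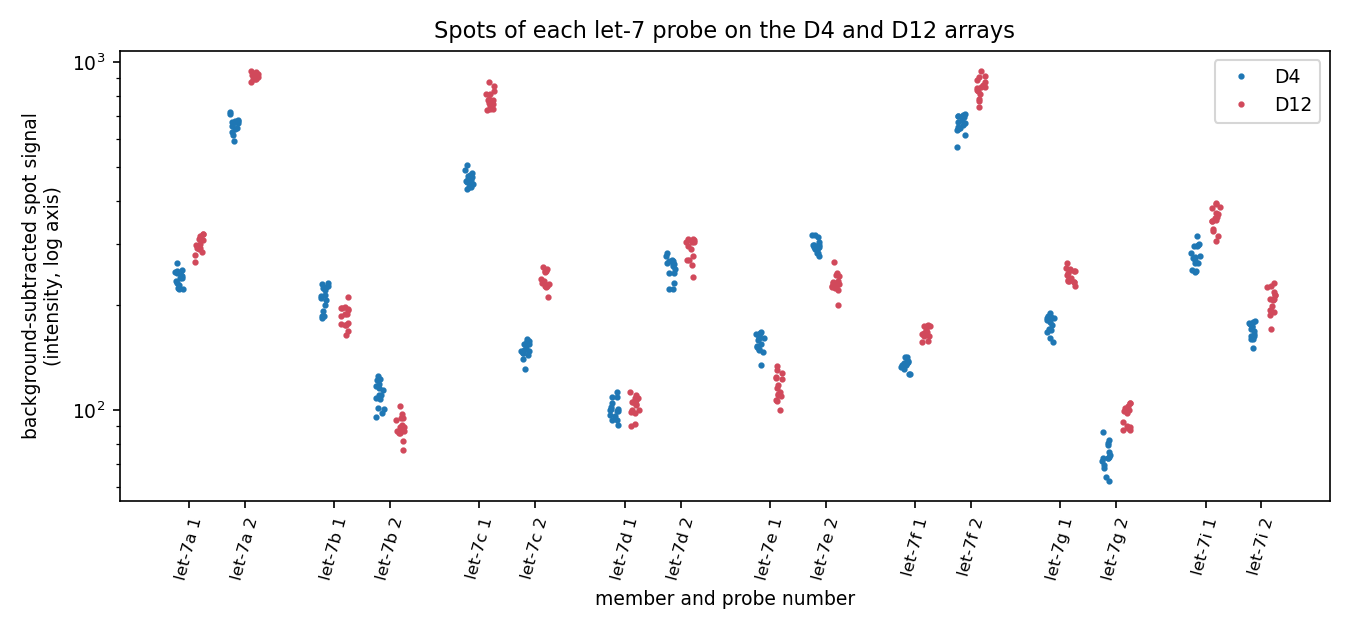
Background-subtracted signal (arbitrary units, log scale) of the single spots of both probes of each of the 8 let-7 members on D4 and D12, without spots that the software marked as outliers. The spots are repeats within 1 array per day. Those of let-7c-5p on D12 lie wholly above those on D4, and those of let-7e-5p wholly below.

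The composition of the family signal shifted between D0 and D12 and then changed little. Shares are of the signal summed over the members, not of molecules, since probes differ in how brightly they read, so each member's share is set only against its own share on other days. let-7c-5p made up 9.79% of the family signal on D0, 14.7% on D4, 19.5% on D12 and 19.1% on D16. let-7e-5p made up 13.5%, 10.9%, 6.70% and 6.35%, and let-7b-5p 9.17%, 7.73%, 5.29% and 5.60%.

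The share of let-7a-5p was higher after D0 as well, and those of the others changed less as a ratio to their own D0 share than that of let-7b-5p. let-7a-5p made up 18.1%, 21.7%, 23.1% and 23.5% of the family signal on D0, D4, D12 and D16. let-7f-5p stayed between 19.2% and 20.9% and let-7g-5p between 5.75% and 6.51%. let-7d-5p went from 8.75% on D0 to 7.66% on D16 and let-7i-5p from 14.1% to 11.1%. Together let-7b-5p and let-7e-5p went from 22.6% on D0 to 12.0% on D12 and 11.9% on D16.

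**Figure D4:**
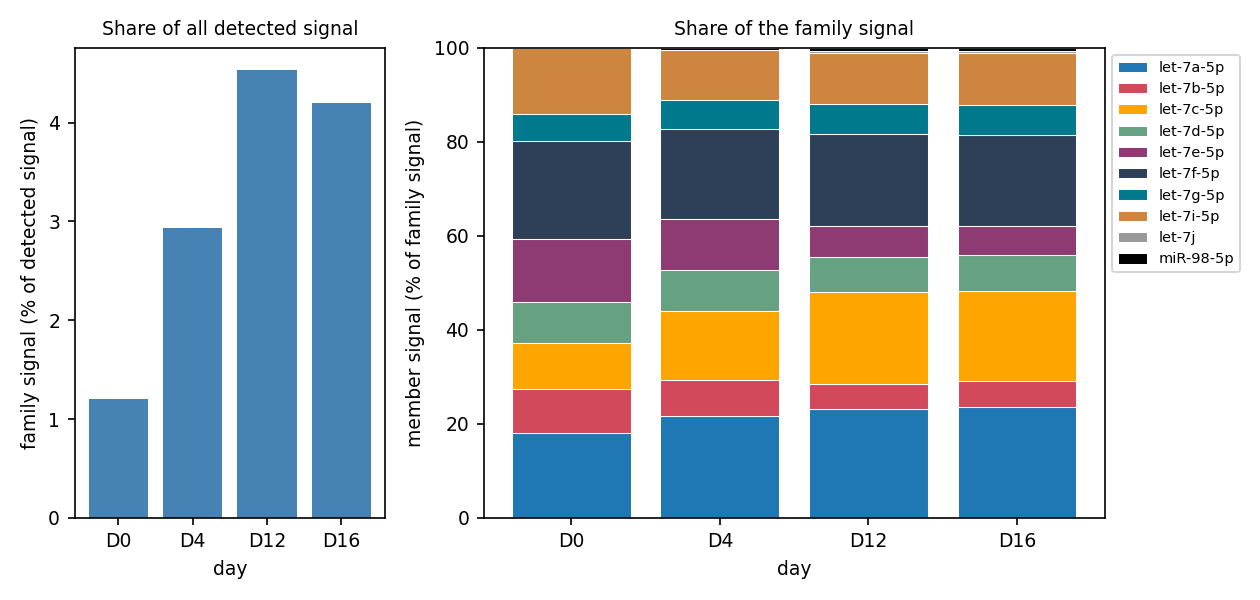
Left, summed let-7 signal as a percentage of all detected signal on D0, D4, D12 and D16, and right, the percentage of the summed let-7 signal taken by each member, as stacked bars that add up to the whole. The family goes from 1.20% to 4.53% of all signal between D0 and D12, the share of let-7c-5p from 9.79% to 19.5% of the family, and that of let-7e-5p from 13.5% to 6.70%.

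From D12 to D16 all 10 members were lower by this rule, and so were 78.4% of miRNAs. The ratio of the 8 bright members ran from 0.619 ± 0.068 for let-7e-5p to 0.693 ± 0.077 for let-7b-5p, with the median miRNA at 0.703. None of the 28 pairs differed by more than 2 technical errors. With the effective spot size divided out, which was larger on D12 than on D16, 2 of 10 members were lower, against 19.4% of miRNAs. Scaled by the spike-in RNAs, 1 of 10 members was lower, against 11.6% of miRNAs, and the members' median ratio was 0.889. That member was let-7j, which had 2 probes summed on D12 and 1 on D16. Both of its probes summed gave, unscaled, 7.56 ± 1.64 on D12 and 5.32 ± 1.30 on D16.

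let-7j and miR-98-5p were near the limit of detection. let-7j was detected on D12, at 7.56 ± 1.64, and on D16, at 2.82 ± 0.921 from 1 probe. Both of its probes summed, detected or not, gave 4.86 ± 1.21 on D0, 7.33 ± 1.76 on D4, 7.56 ± 1.64 on D12 and 5.32 ± 1.30 on D16. Its D12 signal was 1.47 times its limit of detection on D0, 3 times the summed error of its probes. That value leaves out the error of the D12 signal. Both probes summed gave a D12/D0 ratio of 1.56 ± 0.515, and the days overlapped within 2 technical errors. At most 1 of its 30 spots was well above background on any array.

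miR-98-5p is the member made beside let-7f on the X chromosome. It was not detected on D0 and gave 5.16 ± 1.30 from 1 probe on D4, 8.81 ± 1.68 on D12 and 7.02 ± 1.34 on D16. As a multiple of its limit on D0, its signal was 1.04 on D4, 1.77 on D12 and 1.41 on D16, with the technical error left out. Both probes summed gave 2.17 ± 1.17 on D0, below the other 3 days, which lay within 2 technical errors of one another.

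The array also holds let-7k and miR-1961, which share the seed GAGGUAG and are not among the 10. Neither was detected on any day. The seed GAGGUAU of let-7j is shared by 1 other miRNA of the array with a sequence, miR-202-3p, known from testis and ovary, which was named after its values were seen. Its sequence is shown to let the seed be compared with that of let-7j.
miR-202-3p: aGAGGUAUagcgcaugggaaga

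miR-202-3p signal was 6.11 on D0, 21.5 on D4, 7.83 on D12 and 7.51 on D16. It was thus highest on D4, where let-7j was not detected.

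Outside the let-7 family, the miRNA genes within 10 kb of let-7 genes are of the miR-99/100 and miR-125 families. Their miRNAs and miR-125b-5p, whose genes lie within 100 kb, made up a list of 5. Mir135a-1, within 100 kb of let-7g, and Mir3113, within 100 kb of miR-98, were left off it. The 4 listed miRNAs detected on D0 were all brighter on each later day, though with 1 probe summed on D0 and 2 later. On the probe detected on every day, D12/D0 was 47.4 for miR-99a-5p, 8.54 for miR-125b-5p, 3.04 for miR-99b-5p and 3.29 for miR-125a-5p. miR-99a-5p, next to a let-7c gene, was at 3.00 on D0, 75.9 on D4, 174 on D12 and 109 on D16. miR-100-5p, next to a let-7a gene, was not detected on D0 and was at 10.7, 24.5 and 16.3 on the later days. miR-125b-5p, made from genes within 100 kb of those let-7c and let-7a genes, was at 31.9, 207, 289 and 198.

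The neighbours of let-7e had another course. miR-99b-5p was at 4.12 on D0, 36.9 on D4, 17.2 on D12 and 11.8 on D16. miR-125a-5p was at 6.28, 41.8, 25.0 and 15.1. Both were highest on D4, as let-7e-5p was.

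From D4 to D12 the ratio was 2.29 ± 0.274 for miR-99a-5p and 1.40 ± 0.187 for miR-125b-5p, beside 1.63 for let-7c-5p and 1.30 for let-7a-5p. That of miR-100-5p was 2.28 ± 0.420, with 1 probe summed on D4 and 2 on D12, and 1.92 with both probes on both days. It was 0.467 ± 0.069 for miR-99b-5p and 0.597 ± 0.083 for miR-125a-5p, beside 0.751 for let-7e-5p. Unscaled, the listed miRNAs near let-7e and those near let-7c and let-7a thus lay on opposite sides of 1 and of the median miRNA at 0.865. let-7b-5p, beside the other let-7c gene, was at 0.836, below both, where let-7c-5p was above both. let-7e-5p itself ran from 0.742 to 1.00 over 12 settings. These miRNAs were a named list and not all those within 1 window of position, and how their genes are transcribed was not measured.

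**Figure D5:**
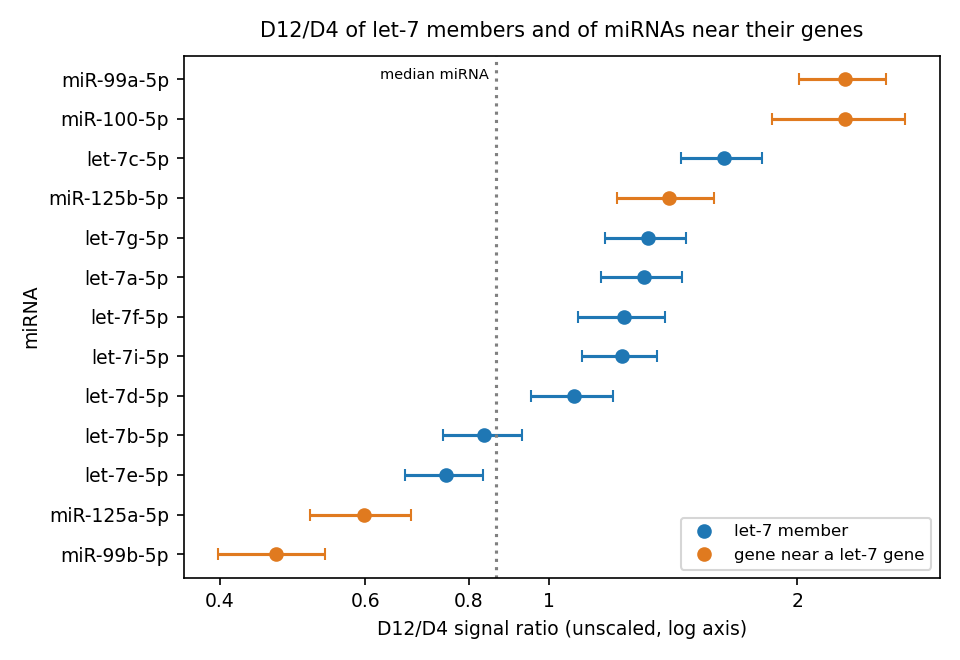
Signal ratio of D12 to D4 (log scale) of let-7 members and of listed miRNAs whose genes lie near theirs, with technical errors as bars and the median miRNA as a dotted line. miR-99b-5p at 0.467 and miR-125a-5p at 0.597 lie with let-7e-5p below 1, and miR-99a-5p at 2.29 lies with let-7c-5p above 1. let-7b-5p, whose gene lies beside a let-7c gene, is below 1 at 0.836.

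Of the 11 passenger arms, the strands cut from the other side of let-7 and miR-98 precursors and mostly discarded, 3 were detected on every day and the others on none. let-7d-3p was at 12.3, 22.0, 21.9 and 14.0 on D0, D4, D12 and D16. let-7b-3p was at 7.345, 18.2, 15.9 and 10.9, and let-7g-3p at 4.83, 9.72, 10.8 and 6.28. Their D12/D0 ratios were 2.16 for let-7b-3p, 1.79 for let-7d-3p and 2.24 for let-7g-3p, for which 2 probes were summed on D0 and 4 on D12 and the probes detected on every day gave 1.55, beside 5.29, 7.90 and 10.4 for the guide arms of the same precursors. The guide arms thus had the larger ratio in each of the 3 pairs.

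The course of the family sum over the days was set against that of 275 other miRNAs detected on all arrays, by the Euclidean distance between log2 ratios to D0 on D4, D12 and D16. The nearest were miR-125b-5p at 0.215, miR-19b-3p at 0.223, miR-20a-5p at 0.260, miR-96-5p at 0.310 and miR-199a-3p at 0.320. For the first 4 of these, 1 probe was summed on D0 and 2 on the later days. With the probes detected on every array alone, miR-125b-5p ranked 2 at 0.308 and miR-199a-3p 3 at 0.320, while miR-19b-3p ranked 12, miR-20a-5p 15 and miR-96-5p 24, so the place of these last 3 rests on the probes summed. The nearest was then miR-16-5p at 0.215, which was named after its values were seen. let-7f-5p was the member nearest to the family sum, at 0.195, and let-7e-5p at 1.51 and let-7c-5p at 1.502 were the farthest. The distance rests on 3 ratios that share 1 D0 array.

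miRNAs described in adipocytes and adipogenesis and those of red blood cells and serum were measured on the same arrays. Of 6 adipocyte miRNAs, 3 were detected on D0, 5 on D4 and all 6 on D12 and D16, with summed signals of 10.99, 176, 231 and 172. Of 6 red cell and serum miRNAs, 1 was detected on D0, 4 on D4 and all 6 on D12 and D16, with summed signals of 9.40, 485, 2607 and 1706. Most of this sum was miR-451a, at 9.40, 443, 2400 and 1559. The others were miR-144-3p, miR-486a-5p, miR-223-3p, miR-122-5p and miR-142a-3p. Both lists were thus lowest on D0 and highest on D12, as the family was. The signal summed over all detected miRNAs was lowest on D0 as well. The 3 adipocyte miRNAs detected on D0 had 1 probe summed there and 2 later. The part of either list in the let-7 values was not tested. The 3 miRNAs of striated muscle, miR-1a-3p, miR-133a-3p and miR-206-3p, were not detected on any day.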

How the data were processed

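RNA of the exosome fractions was hybridised to 1 array per day. The authors deposited intensity values from the scanner software (Feature Extraction 11.0.1.1), which subtracts the local background and does not scale 1 array to another. A miRNA's deposited intensity adds up those probes that stand above 3 times their own error, and is 0.1 where none does. The deposited files also hold spot signals, errors and quality flags (other values). Samples were grouped by the day in their labels.

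Members were taken by exact name. Ratios between days, shares, ratios of ratios and distances were computed with Python 3.11.15, numpy 2.4.6 and pandas 2.3.3, with technical errors propagated. Days were not tested against each other, since each has 1 array, and the precision is limited by the number of arrays. Percentages of miRNAs refer to those detected on both days. A miRNA not detected at D0 was counted at the lowest detected D0 signal, 1.22. Its printed multiple of the D0 limit uses 3 times the summed error of its probes at D0. Alternatives were 5 scalings, probe sets, spot measures, parts of the array, thresholds, and normexp with an offset of 50 (limma 3.58.1, R 4.3.3) on median spot signals. Only the ratios and the median ratio were tested on simulated data, with the changes built in. Probe sums, scalings, shares, pair intervals and distances were not.

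Besides the members, the text names array miRNAs with the let-7a-5p seed, a list of miRNAs near let-7 genes, the 3 brightest passenger arms and the 5 nearest patterns. The members and lists were chosen with earlier results of these data known. Sequences and positions came from RefSeq tables of GRCm38.p6, which gave a mature sequence for 1608 of 1881 miRNAs. The qPCR, cell and muscle experiments were not analysed here.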

Additional observations from a re-analysis of the deposited data

How the results depend on the processing

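With 1 array per day no array could be left out, and an error between cultures is missing from every value. No paired analysis was possible because each day has 1 array and the labels give no replicate numbers. Every ratio of the 8 members detected on all days to D0 stayed above 1 in all 12 settings, and the family ratio ran from 1.76 to 9.01 on D4, 2.79 to 11.1 on D12 and 2.65 to 7.19 on D16. The cause of the changes below was not tested beyond the construction of each setting.

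The family ratio to D0 on D4, D12 and D16 was 1.76, 2.79 and 2.65 with the arrays brought to an equal 75th percentile over miRNAs that all of them detected. With the 75th percentile of each array's detected miRNAs it was 3.65, 4.41 and 3.40, with the 90th percentile 2.54, 3.96 and 3.76, with the spike-in RNAs 4.11, 5.33 and 4.71, and with quantile normalization 2.14, 3.55 and 3.37. Normexp gave 3.08, 3.76 and 3.21, the left part of the array 9.01, 11.1 and 7.19, and the right part 6.26, 7.67 and 5.04. With the effective spot size divided out it was 5.77 on D4 and 7.25 on D12, and with mean spot signals 5.79 and 7.25. Relative to the median miRNA it was 2.52, 4.28 and 4.29 after quantile normalization and 2.46, 3.35 and 3.06 after normexp. This measure was 3.06 on D4 and 4.83 on D12 with mean spot signals, 3.04 on D4 with probes detected on all arrays, and 4.30 on D16 on the left part.

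Counting miRNAs not detected on D0 at the lowest D0 signal, 9 members exceeded 2-fold on D4, 10 on D12 and 10 on D16, against 70.9%, 60.3% and 46.3% of miRNAs detected on the day. Counted at their own limit on D0, let-7j and miR-98-5p did not exceed 2-fold, and the count was 8 on each day. The D4 count was 2 with the 75th percentile over all arrays (13.8% of miRNAs) and 5 with quantile normalization (13.6%), and the D16 count was 6 with normexp (8.95%). Members higher on D12 than on D4 numbered 7, in place of 4, with that 75th percentile (36.6% of miRNAs), the 90th (34.0%), quantile normalization (33.7%) and no tolerance (29.4%), where it was 15.0% before. Members lower on D16 than on D12 numbered 1, in place of 10, with the same 75th percentile, the 90th, quantile normalization, spike-in RNAs and mean spot signals, 2 with spot size divided out and 0 with normexp, where the share of miRNAs was 78.4% before and between 1.35% and 19.4% in these settings. let-7b-5p D12/D4 turned to 1.08, 1.07 and 1.05 with the 75th percentile, the 90th and quantile normalization. Its D16/D12 turned to 1.007 with the former and 1.006 with the 90th percentile, and let-7f-5p D16/D12 to 1.08 with quantile normalization. The change of let-7c-5p over let-7b-5p on D12 was 2.73 with normexp. The ranking of nearest miRNAs over the probes detected on every array was added after the data were seen.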
